A study of Mus musculus with 6 samples.

Results

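Tight junctions seal the space between neighbouring epithelial or endothelial cells, and 9 genes of this structure were followed here in mouse lung cells. They were chosen by name. They are the claudins Cldn3, Cldn4, Cldn5, Cldn6, Cldn7 and Cldn18, occludin (Ocln), zonula occludens 1 (Tjp1) and cingulin (Cgn), out of 18193 genes on the array. All 9 passed the filter on low values, as did 13335 genes in all. The series compared 3 adult samples of Lyz2+/EpCAM+ cells, which it calls alveolar type II cells, with 3 samples of Muc1+/Pdpn+ cells from embryonic day 18 (E18) lungs, which it calls bipotent progenitors. Both populations came from sorted lung cells with no other treatment given. Strain, sex, the adult age in weeks and whether animals were pooled were not given in the sources used here. The samples are labelled biological replicates, each on 1 Affymetrix 3′ expression array, and age and cell population differ together.

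Claudins are membrane proteins whose extracellular loops meet those of the next cell, and the mix of claudins sets which ions and solutes pass between cells. Occludin is a second membrane protein of the strand, Tjp1 is the scaffold that ties the strand to actin, and cingulin links the scaffold to actomyosin and microtubules. In the alveolus, Cldn3, Cldn4 and Cldn18 are known as the main epithelial claudins. Cldn5 is best known from endothelium, and Cldn6 from embryonic epithelia.

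The starts of these genes are shown as sequence for the claudin called with both its probe sets (Cldn18, the upstream of 2 annotated starts), for the claudin whose adult arrays spread most (Cldn3) and for Cldn4 and Ocln, whose profiles over the arrays were the closest pair. Each window runs from 250 bases before to 50 bases after an annotated start, 5′ to 3′ on the gene's strand, from RefSeq on GRCm38.p6. Capitals mark CACCTG or its reverse complement, the E-box that repressors of the Snail and Zeb families are known to bind in epithelial genes.
Cldn18, chr9:99717218-99717517, minus strand: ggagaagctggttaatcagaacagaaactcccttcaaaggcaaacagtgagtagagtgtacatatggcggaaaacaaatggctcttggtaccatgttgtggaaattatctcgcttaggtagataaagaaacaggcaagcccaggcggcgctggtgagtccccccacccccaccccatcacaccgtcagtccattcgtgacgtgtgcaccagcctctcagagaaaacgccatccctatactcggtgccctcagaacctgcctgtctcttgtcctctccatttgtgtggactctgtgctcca
Cldn3, chr5:134985964-134986263, plus strand: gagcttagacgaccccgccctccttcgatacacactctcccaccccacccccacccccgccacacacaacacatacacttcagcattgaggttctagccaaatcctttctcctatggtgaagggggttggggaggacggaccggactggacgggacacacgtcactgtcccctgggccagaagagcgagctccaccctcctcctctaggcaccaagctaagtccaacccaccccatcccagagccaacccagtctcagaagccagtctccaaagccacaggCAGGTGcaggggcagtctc
Cldn4, chr5:134946885-134947184, minus strand: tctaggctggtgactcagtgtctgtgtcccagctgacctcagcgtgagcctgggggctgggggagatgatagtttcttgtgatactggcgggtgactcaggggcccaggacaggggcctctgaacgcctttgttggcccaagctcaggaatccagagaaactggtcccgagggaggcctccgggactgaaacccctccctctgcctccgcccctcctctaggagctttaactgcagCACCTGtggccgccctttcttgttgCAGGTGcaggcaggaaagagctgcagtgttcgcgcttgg
Ocln, chr13:100552669-100552968, minus strand: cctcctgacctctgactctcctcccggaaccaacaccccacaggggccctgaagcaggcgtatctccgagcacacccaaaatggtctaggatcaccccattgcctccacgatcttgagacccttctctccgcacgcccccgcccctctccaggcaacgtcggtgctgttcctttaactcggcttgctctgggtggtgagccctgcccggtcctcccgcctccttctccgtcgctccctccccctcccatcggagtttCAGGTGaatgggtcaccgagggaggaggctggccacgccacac
All 9 genes matched this table, with 12 starts. CACCTG, searched on both strands, was present at 6 of the 12 starts, of Cldn3, Cldn4, Cldn6, Cldn7 and Ocln, and at 20.2% of 32851 windows of the same length. GGGCGG, the GC box, was present at 9 of 12 starts, of every gene but Cldn18, and at 35.7% of windows. AACCNGTT, the grainyhead motif, was present for Cldn5 and Cgn and at 2.09% of windows. CTCAAG, a core of Nkx2-1 sites, was present for Cldn6 and Ocln and at 15.9% of windows, and the ETS motif CAGGAAG at 0 of 12 starts and 13.3% of windows. A match is a description of the letters in these windows, and every motif was searched on both strands.

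Properties of the arrays touch every value below. Adult replicate 3 stood apart from adult replicates 1 and 2: its correlation with them across genes was 0.777 and 0.828, against 0.913 between those 2 arrays. Among the E18 arrays, replicates 1 and 2 correlated at 0.983, the closest pair of arrays, and replicate 3 with them at 0.928 and 0.921. The general epithelial markers Epcam, Cdh1, Krt7, Krt8, Krt18 and Krt19 were all highest, among adult arrays, in replicate 3. Their summed signal was 3483, 4207 and 50676 in adult replicates 1, 2 and 3, against 22663, 25294 and 33128 in E18 replicates 1, 2 and 3. The median poly-A spike-in signal was 21269 in adult replicate 3 and 16027 in E18 replicate 3, and between 75.4 and 741 on the other 4 arrays, so the third replicates may form a batch that no label names. Ptprc, the pan-leukocyte surface phosphatase CD45, was bright in these sorts. It stood at 15.16, 14.32 and 13.81 in adult replicates 1, 2 and 3 and at 13.16, 12.91 and 13.84 in E18 replicates 1, 2 and 3 (log2 signal). Not every leukocyte marker was bright: Cd3e stood at 9.71, 8.30 and 6.73 in adult replicates 1, 2 and 3 and at 4.72, 4.29 and 5.89 in E18 replicates 1, 2 and 3. Surfactant protein C (Sftpc), the defining type II cell transcript, stood between 14.50 and 14.67 on adult arrays and between 13.90 and 14.17 on E18 arrays. In bulk samples, fewer cells of a type and less RNA per cell cannot be told apart.

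All values below are log2 signals of the gene's brightest probe set, and differences are adult minus E18, so that negative ones mean lower in the adult arrays. A gene was called when limma's two-sided test gave an adjusted p under 0.05 over all genes tested. Of the 9 genes 3 were called, Cldn18, Tjp1 and Cldn6, all lower in the adult arrays, while 4.57% of all tested genes were called lower, 1.41% higher and 5.98% in either direction. Cldn6 passed the filter through the E18 arrays alone, where it was above the floor. The filter thus favoured its call and its lack of overlap. It is still counted in the 3, and below in the 6 at an unadjusted p under 0.05 and the 6 without overlap. Cldn6 also enters the median of the 9 and the 9 negative differences. The same holds for the 9 with adult replicates 1 and 2 below every E18 array, and the 8 called without adult replicate 3. Those counts and that median are therefore not a like-for-like reading against the values over all tested genes. At an unadjusted p under 0.05, 6 of the 9 were lower, against 15.1% of tested genes. The 9 genes had 15 probe sets, all tested, of which 3 were called, 2 of Cldn18 and that of Tjp1, against 3.96% of all probe sets tested. The median difference of the 9 was -2.47, against -0.17 over all tested genes, and all 9 differences were negative, as were 59.0% of those tested. For 6 of the 9 the adult and E18 arrays did not overlap, all but Cldn3, Cldn7 and Cgn, against 28.9% of tested genes. Adult replicates 1 and 2 were below every E18 array for all 9, as they were for 35.7% of tested genes. The count of 3 depended on single arrays. Leaving out either E18 replicate 1 or 2 brought it to 0 (limma, with 5 of the 9 at an unadjusted p under 0.05 each time). It was 1 without adult replicate 2, 1 without E18 replicate 3 and 2 without adult replicate 1. Without adult replicate 3 it was 8, all but Cldn5, where 15.5% of tested genes were called lower. With replicates 1 and 2 only it was 7, all but Cldn3 and Cldn6, against 16.5% of tested genes. The adult arrays were the more variable: the log2 range over adult arrays exceeded that over E18 arrays for all 9, and for 78.9% of tested genes.

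**Figure D1:**
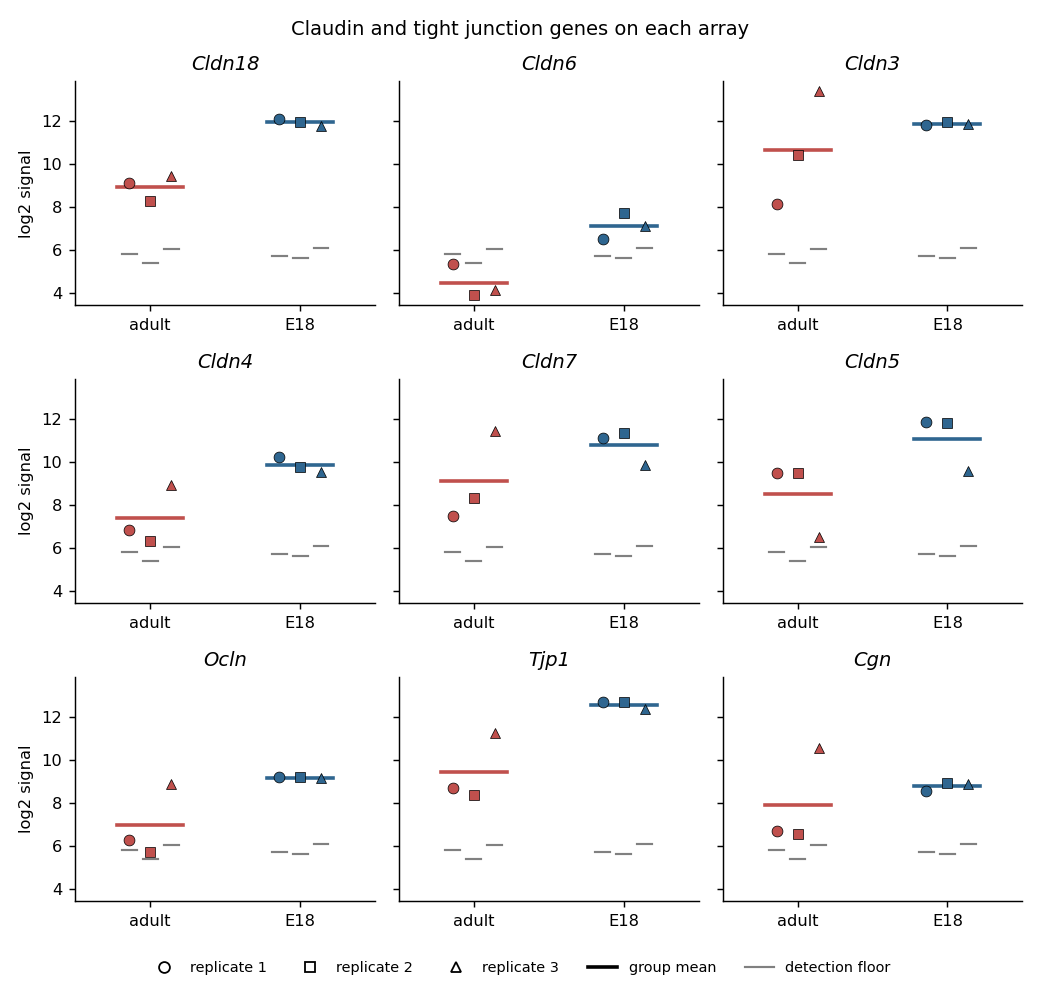
Log2 signal of each gene (vertical axis) in adult and E18 samples, with replicate 1 as a circle, replicate 2 as a square and replicate 3 as a triangle, the group mean as a horizontal bar and each array's detection floor as a grey tick. Adult replicates 1 and 2 lie below every E18 array for all 9 genes, and adult replicate 3 lies above every E18 array for Cldn3, Cldn7 and Cgn.

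Cldn18, the claudin typical of alveolar epithelium in the lung, was the gene of this set with the lowest adjusted p. It stood at 9.13, 8.30 and 9.47 in adult replicates 1, 2 and 3, against 12.13, 11.96 and 11.77 in E18 replicates 1, 2 and 3. All adult arrays, replicate 3 included, lay well below all E18 arrays. The means were 8.96 ± 0.60 and 11.95 ± 0.18 (adult and E18, SD, n = 3 each), a difference of -2.99 (SE 0.37, limma adjusted p = 0.00857), or 7.94-fold lower. Its second probe set moved alike, by -2.81 (SE 0.59, adjusted p = 0.0415 over all probe sets). Replicates 1 and 2 by themselves gave -3.33, and the replicate 3 arrays gave -2.30. The call was lost without E18 replicate 1 (adjusted p = 0.0613) or E18 replicate 2 (adjusted p = 0.0568).

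Type I cell markers were lower in the adult arrays too. Of the 7 tested 3 were called lower, Pdpn, Akap5 and Clic5, as were 4.57% of all tested genes. Ager, Aqp5, Hopx and Rtkn2 did not pass, and Aqp5 overlapped between the groups. The median of the 7 was -2.27. The summed signal of the 7 ranged from 12141 to 18909 in adult arrays and from 42141 to 58763 in E18 arrays. Pdpn was used to sort the E18 cells. The 6 type II markers measured had a median of -0.13, and none of them was called. Endothelial, mesenchymal and mesothelial markers had medians of -3.15, -3.52 and -3.27, so a fall was not particular to type I markers. The part of type I cells in the Cldn18 difference was not tested.

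Tjp1, the zonula occludens scaffold, had the largest difference of the 9 genes. It stood at 8.72, 8.39 and 11.25 in adult replicates 1, 2 and 3, against 12.71, 12.70 and 12.36 in E18 replicates 1, 2 and 3. Adult replicate 3 was closer to the E18 arrays than to the other adult arrays, yet below all of them. The means were 9.45 ± 1.57 and 12.59 ± 0.20 (adult and E18, SD, n = 3 each), a difference of -3.14 (SE 0.71, limma adjusted p = 0.0463), or 8.81-fold lower. Without adult replicate 3 it was 16.4-fold lower (-4.04, SE 0.29, adjusted p = 0.00108). Leaving out any other single array ended the call, with adjusted p from 0.104 without E18 replicate 3 to 0.172 without E18 replicate 2.

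Cldn6, a claudin of embryonic epithelia, was dim throughout and under the detection floor in the adult samples. The floor is the 40th percentile of each array, a rank and not a measured background. Cldn6 stood at 5.34, 3.90 and 4.16 in adult replicates 1, 2 and 3, all under the floor, against 6.54, 7.74 and 7.14 in E18 replicates 1, 2 and 3, all above it. It was therefore at least 2.61-fold lower in the adult arrays, computed against the adult floors (measured means 4.47 ± 0.77 and 7.14 ± 0.60 in adult and E18 arrays, SD, n = 3 each, limma adjusted p = 0.0452). With values under the floor set to the floor the adjusted p was 0.0811. The adjusted p was 0.130 without adult replicate 2, and 0.145, 0.246 and 0.107 without E18 replicates 1, 2 and 3. With the third replicates as a batch block it was 0.0567.

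Cldn3, Cldn7 and Cgn were low in adult replicates 1 and 2 and, in adult replicate 3, higher than on any E18 array. Cldn3, a sealing claudin of many epithelia, stood at 8.14, 10.44 and 13.40 in adult replicates 1, 2 and 3, against 11.84, 11.95 and 11.85 in E18 replicates 1, 2 and 3. The E18 arrays spanned 0.11 and the adult arrays 5.26, so the adult arrays lay on both sides of the E18 arrays. The difference of -1.22 did not pass (95% interval -3.85 to 1.42, limma adjusted p = 0.586). It was -2.59 without adult replicate 3 (adjusted p = 0.0273) and 0.04 without adult replicate 1 (adjusted p = 0.984). All 4 Cldn3 probe sets had the same order of adult arrays, and none passed. The main one carries the _x_at suffix, by which Affymetrix marks probe sets that share probes with other transcripts.

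Cldn7, a claudin also found along the basolateral membrane of epithelia, stood at 7.52, 8.35 and 11.46 in adult replicates 1, 2 and 3, against 11.14, 11.37 and 9.88 in E18 replicates 1, 2 and 3. Its lowest E18 value was in replicate 3 and its highest adult value too. The difference of -1.69 did not pass (95% interval -3.94 to 0.57, limma adjusted p = 0.362), while leaving out adult replicate 3 gave -2.86 (adjusted p = 0.0104). Omitting any other single array gave limma adjusted p from 0.348 to 0.689. Replicates 1 and 2 by themselves gave -3.32, and the replicate 3 arrays gave 1.58.

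Cgn stood at 6.68, 6.57 and 10.56 in adult replicates 1, 2 and 3, against 8.57, 8.95 and 8.90 in E18 replicates 1, 2 and 3. It had the smallest mean difference of the 9 genes, -0.87 (95% interval -3.20 to 1.46, limma adjusted p = 0.663), which was -2.18 without adult replicate 3 (adjusted p = 0.00441). In replicate 3 it was 1.66. With any other single array left out than adult replicate 3, Cgn did not pass, with limma adjusted p from 0.756 to 0.942. A second, dimmer Cgn probe set differed by -0.15 (adjusted p = 0.955 over all probe sets).

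Cldn4 and Ocln shared the order of the arrays with Tjp1, with adult replicate 3 just below the E18 arrays. Cldn4, a claudin known to tighten the alveolar barrier, stood at 6.86, 6.34 and 8.95 in adult replicates 1, 2 and 3, against 10.25, 9.79 and 9.52 in E18 replicates 1, 2 and 3. The groups did not overlap, but the difference of -2.47 missed the threshold (SE 0.66, 95% interval -4.02 to -0.92, limma adjusted p = 0.0782). Without adult replicate 3 it was -3.25 (adjusted p = 0.00209), or 9.54-fold lower. With any other single array left out it did not pass, with limma adjusted p from 0.137 to 0.286.

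Ocln stood at 6.30, 5.72 and 8.90 in adult replicates 1, 2 and 3, against 9.21, 9.20 and 9.17 in E18 replicates 1, 2 and 3. The E18 arrays were within 0.042 of each other, and adult replicate 3 lay 0.27 below E18 replicate 3. The difference of -2.22 did not pass (SE 0.77, 95% interval -4.02 to -0.42, limma adjusted p = 0.152), while leaving out adult replicate 3 gave -3.19 (adjusted p = 0.00169). Omitting any other single array gave limma adjusted p from 0.261 to 0.397. A second Ocln probe set differed by -1.53 (adjusted p = 0.243 over all probe sets).

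Epithelial and airway markers moved with these 6 genes within the adult group. As a departure from each gene's mean, the median of the 6 epithelial markers was -2.26, -1.83 and 1.77 in adult replicates 1, 2 and 3, against 0.71, 0.75 and 1.19 in E18 replicates 1, 2 and 3. For the 9 junction genes it was -1.76, -1.90 and 0.33 in adult replicates 1, 2 and 3, against 1.19, 1.42 and 0.90 in E18 replicates 1, 2 and 3. Epcam, by which the adult cells were sorted, stood at 7.85, 8.50 and 10.68 in adult replicates 1, 2 and 3, against 10.69, 11.31 and 9.26 in E18 replicates 1, 2 and 3. Cdh1, the epithelial cadherin, stood at 9.38, 9.47 and 13.51 in adult replicates 1, 2 and 3, against 12.31, 12.31 and 12.69 in E18 replicates 1, 2 and 3. The summed signal of 7 airway markers was 20354, 21283 and 98506 in adult replicates 1, 2 and 3, and between 21529 and 27520 in E18 arrays. That of 7 leukocyte markers was 136178, 78251 and 55155 in adult replicates 1, 2 and 3, and between 33797 and 48181 in E18 arrays. With every array centred on its epithelial markers limma called 0 of the 9 genes, with 0 at an unadjusted p under 0.05. Cldn18 was then at -1.29 (SE 1.37, limma adjusted p = 0.496) and Tjp1 at -1.44 (SE 1.42, adjusted p = 0.479). Their SEs were 0.37 and 0.71 in the reported fit, so the centring changed the spread as well as the differences. That scaling set the median of all tested genes at 1.53. Over all 6 arrays limma called 0 of the 6 epithelial markers (median difference -1.61, 1 lower at an unadjusted p under 0.05), 0 of 6 tested airway markers (0.59, 3 higher) and 0 of 7 leukocyte markers (1.12, 4 higher). The part of airway cells and leukocytes in the junction genes' differences was not tested.

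**Figure D2:**
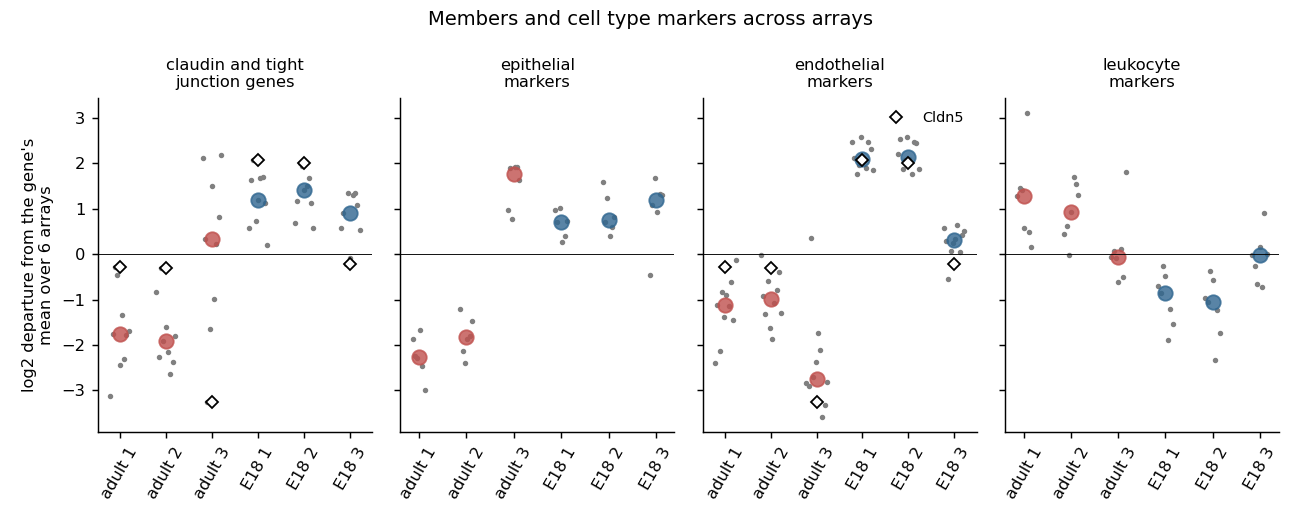
Departure of each gene's log2 signal from its own mean over 6 arrays (vertical axis) on each array, for the 9 junction genes and for epithelial, endothelial and leukocyte markers, with 1 grey dot per gene, a large dot at the median of the list, adult in red and E18 in blue, and Cldn5 as a diamond. Epithelial markers peak in adult replicate 3, with a median of 1.77, while endothelial markers are lowest there, with a median of -2.76.

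Cldn5 had the reverse order, with its lowest value of each group in replicate 3. This claudin of endothelial junctions stood at 9.51, 9.49 and 6.54 in adult replicates 1, 2 and 3, against 11.87, 11.82 and 9.58 in E18 replicates 1, 2 and 3. The groups did not overlap, though adult replicate 1 was within 0.073 of E18 replicate 3. The difference of -2.58 did not pass in the test over all 6 arrays (SE 0.94, 95% interval -4.76 to -0.39, limma adjusted p = 0.167). Replicates 1 and 2 by themselves gave -2.35 (adjusted p = 0.00631), the replicate 3 arrays gave -3.04, and the third replicates taken as a batch block gave an adjusted p of 0.00757. Cldn5 did not pass with any single array left out, with limma adjusted p from 0.115 to 0.476.

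Endothelial markers moved with Cldn5. Of 10 tested 4 fell in the adult arrays, Cdh5, Tie1, Emcn and Esam, against 4.57% of all tested genes. The other 6 missed the threshold. The median of the 10 was -3.15. Their summed signal was 2224, 2835 and 2800 in adult replicates 1, 2 and 3, against 22513, 23798 and 6189 in E18 replicates 1, 2 and 3. The vascular endothelial growth factor receptor Kdr gave 2191 of the 2800 in adult replicate 3 and was the exception among the 10, at 8.61, 9.43 and 11.10 in adult replicates 1, 2 and 3, against 12.51, 12.62 and 10.21 in E18 replicates 1, 2 and 3. It was higher in adult than in E18 replicate 3, while the other 9 markers did not overlap between the groups, against 28.9% of tested genes. Tie1 passed the filter through the E18 arrays alone. Cdh5, the endothelial cadherin, stood at 7.82, 8.02 and 6.02 in adult replicates 1, 2 and 3, against 11.06, 11.46 and 9.22 in E18 replicates 1, 2 and 3 (limma adjusted p = 0.0454). The call of Cdh5 was lost without adult replicate 1 or 2 (adjusted p = 0.0933 and 0.102) or E18 replicate 1 or 2 (adjusted p = 0.182 and 0.184), and held without adult replicate 3 (adjusted p = 0.0279) or E18 replicate 3 (adjusted p = 0.0376). Pecam1, the platelet and endothelial adhesion molecule, stood at 3.84, 6.21 and 3.41 in adult replicates 1, 2 and 3, against 8.71, 8.44 and 6.81 in E18 replicates 1, 2 and 3 (limma adjusted p = 0.0598). In adult replicate 3 only 3 of the 10 markers were at or above the floor. With arrays centred on the endothelial markers, a scaling added after the data were seen, the difference of Cldn5 was 0.49 (adjusted p = 0.636), and the median of all tested genes was 2.89. The part of endothelial cells in the Cldn5 difference was not tested.

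**Figure D3:**
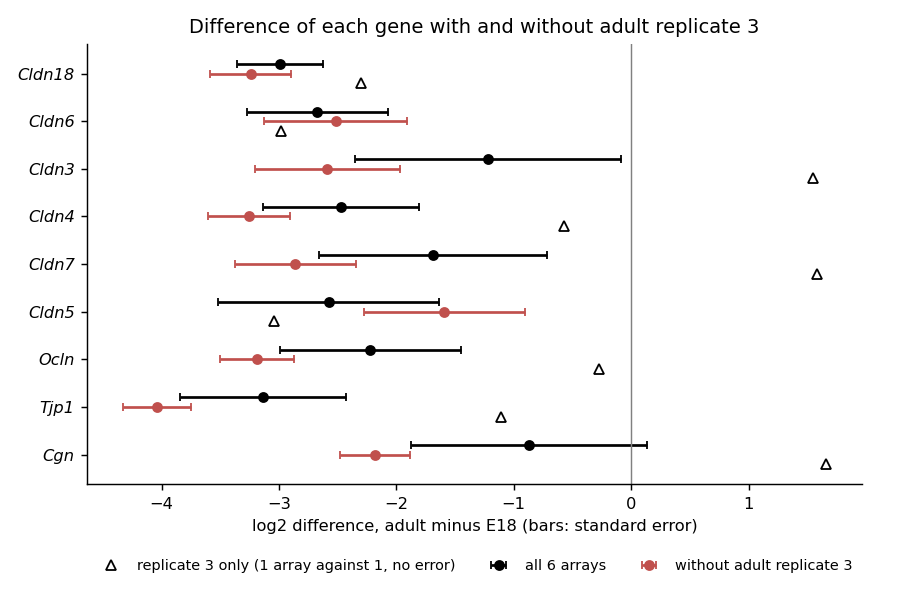
Log2 difference, adult minus E18 (horizontal axis), of each gene over all 6 arrays (black, bars are standard errors), without adult replicate 3 (red, bars are standard errors) and between the replicate 3 arrays alone (open triangles, 1 array against 1, no error). Cldn3, Cldn7 and Cgn are above 0 between the replicate 3 arrays, at 1.55, 1.58 and 1.66, and Cldn18, Cldn6 and Cldn5 are below -2 in all of these comparisons except Cldn5 without adult replicate 3, at -1.59.

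The likeness of profiles over the arrays was measured for every pair. The profile over the 6 arrays, centred on each gene's mean, of Cldn4 differed from that of Ocln by a root mean square of 0.30 and from that of Tjp1 by 0.38 (log2), the smallest of the 36 pairs. Over all tested genes the closest profiles to Cldn5 were those of Clec14a (0.30), Cyyr1 (0.34) and Tek (0.36). The closest to Cldn18 were Nckap5 (0.14), Ctdspl (0.14) and E2f7 (0.17), and to Tjp1 Smtnl2 (0.19), Shh (0.21) and Vnn1 (0.22). For Cldn4 they were Fhl1 (0.11), Ssu2 (0.17) and Ticrr (0.17), and for Ocln AU021092 (0.14), Rab25 (0.17) and Sox6 (0.17). For Cldn3 they were Nat8f4 (0.22), Adgrg1 (0.23) and Wdr66 (0.24), for Cldn7 Zbtb12 (0.14), Kcnk1 (0.21) and Kcnj15 (0.25), for Cgn Cracdl (0.14), Rhpn2 (0.17) and Ckmt1 (0.20), and for Cldn6 Mboat2 (0.31), Bnc2 (0.35) and Pappa2 (0.36). These are descriptions over 6 arrays in 2 groups.

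The other genes of the tight junction were read in the same fit. Of 16 further claudins 14 were on the array under 1 symbol and 7 passed the filter, and 0 of the 7 were called by limma, with 1 at an unadjusted p under 0.05 (21.6% of tested genes). Their median difference was -0.48. Cldn15, a pore-forming claudin of the intestine, had the lowest adjusted p (7.21 ± 0.64 in adult and 8.81 ± 0.50 in E18 arrays, SD, n = 3 each, limma adjusted p = 0.0927), followed by Cldn12 (9.60 ± 1.33 in adult and 10.99 ± 0.65 in E18 arrays, SD, n = 3 each, limma adjusted p = 0.280). Without adult replicate 3, 2 of the 7 were called, both lower, Cldn10 and Cldn12, against 15.5% of tested genes.

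Of 9 other membrane proteins of tight and tricellular junctions that were tested, 1 fell in the adult arrays and 8 did not pass. It was Ildr2, a member of the angulin family of tricellular contacts, which stood at 7.22, 6.02 and 6.05 in adult replicates 1, 2 and 3, against 9.88, 10.44 and 8.66 in E18 replicates 1, 2 and 3 (-3.23, SE 0.57, limma adjusted p = 0.0214). Its probe set carries the _x_at suffix, like the main one of Cldn3. The Ildr2 call was lost without E18 replicate 1, E18 replicate 2 or adult replicate 2 (adjusted p = 0.120, 0.117 and 0.0890). F11r, the junctional adhesion molecule JAM-A, stood at 10.49 ± 1.14 in adult and 12.21 ± 0.23 in E18 arrays (SD, n = 3 each, limma adjusted p = 0.119). Without adult replicate 3, 6 of these 9 membrane protein genes were called lower, against 15.5% of tested genes. Over all arrays that share was 4.57%.

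Of 19 scaffold and polarity proteins tested 2 fell and 17 missed the threshold, where 4.57% of all tested genes fell. The median of the 19 was -1.04. For 9 of the 19 the adult and E18 arrays did not overlap, against 28.9% of tested genes. Pard6b, a subunit of the Par polarity complex, stood at 7.20, 6.12 and 8.29 in adult replicates 1, 2 and 3, against 10.62, 10.61 and 11.54 in E18 replicates 1, 2 and 3, and was 13.2-fold lower (-3.72, SE 0.58, limma adjusted p = 0.0147). Mpdz, the multiple PDZ protein that binds claudin tails, stood at 6.36, 6.63 and 6.30 in adult replicates 1, 2 and 3, against 9.78, 9.97 and 8.75 in E18 replicates 1, 2 and 3 (-3.07, SE 0.42, limma adjusted p = 0.0105). For both the groups did not overlap, adult replicate 3 included. The calls were lost without E18 replicate 1 or 2 for both, with adjusted p of 0.0757 and 0.0734 for Pard6b and 0.0837 and 0.0766 for Mpdz, and without E18 replicate 3 for Pard6b (adjusted p = 0.0509). Without adult replicate 3, 11 of the 19 were called lower, against 15.5% of tested genes.

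**Figure D4:**
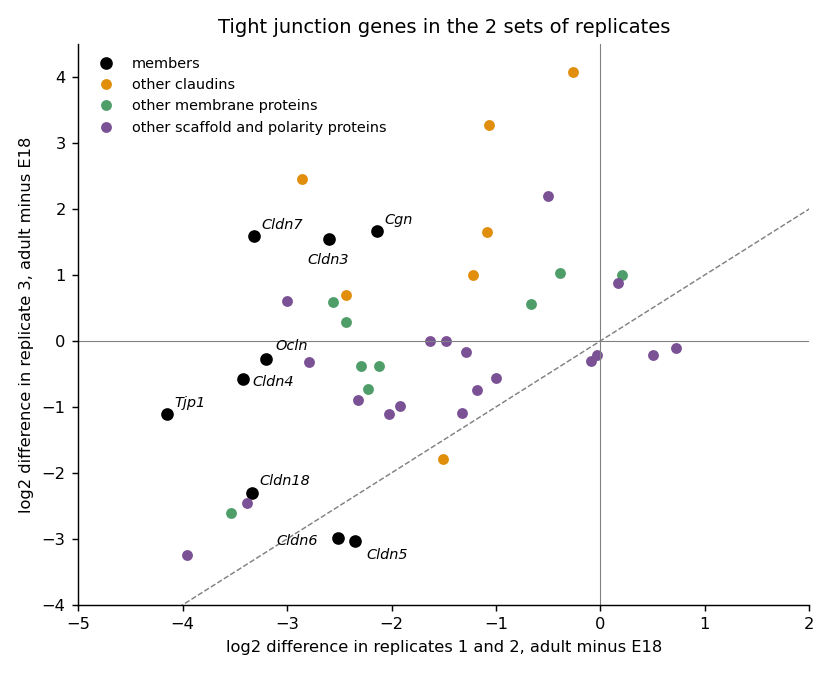
Log2 difference, adult minus E18, in replicates 1 and 2 (horizontal axis) against that in replicate 3 (vertical axis), with 1 point per tested gene for the 9 members and the other claudins, membrane proteins and scaffold proteins, and a dashed line where both are equal. All 9 members lie left of 0, from -4.15 for Tjp1 to -2.14 for Cgn, and Cldn3, Cldn7 and Cgn lie above 0 on the vertical axis.

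Another 13 tested genes code for transcription factors, membrane proteases and protease inhibitors that act on epithelial junctions. Of these, 0 were called by limma, with 1 at an unadjusted p under 0.05 (21.6% of tested genes). Snai2, a repressor of epithelial junction genes, stood at 9.46, 4.85 and 2.03 in adult replicates 1, 2 and 3, against 12.05, 11.99 and 10.50 in E18 replicates 1, 2 and 3 (limma adjusted p = 0.0795). It was under the floor in adult replicates 2 and 3, and its probe set carries the _x_at suffix. Mesenchymal markers moved with it, with a summed signal from 2138 to 14243 in adult arrays and from 32149 to 54561 in E18 arrays. Of 7 such markers 5 fell, against 4.57% of all tested genes. Prss8, the epithelial protease prostasin, stood at 8.20 ± 2.07 in adult and 10.08 ± 0.29 in E18 arrays (SD, n = 3 each, limma adjusted p = 0.287). Grhl2, a factor known to activate claudin genes in epithelia, differed by -0.55 (limma adjusted p = 0.726). Of 4 mesothelial markers 3 fell, Msln, Upk3b and Wt1, where 4.57% of all tested genes fell. Wt1 passed the filter through the E18 arrays alone, which favoured its call. The summed signal of the 4 was from 228 to 574 in adult arrays and from 4691 to 6747 in E18 arrays. The part of mesenchymal and mesothelial cells in these values was not tested.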

How the data were processed

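The authors deposited a linear signal intensity for every probe set of 6 arrays. The submitters' processing notes name MAS5 and Affymetrix Expression Console. The values show scaling of each array to a trimmed mean near 500.003 without the lowest and highest 2%. Here log2 was taken of the deposited values, without a pseudocount or another normalization. Per the labels' protocols, RNA was amplified in 2 cycles before labelling.

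Of 45101 probe sets, 34945 had exactly 1 gene symbol in the platform table, for 18193 genes, 932 had several and 9160 were unlisted. Each gene was read from its brightest probe set by mean log2 signal. A gene was tested if it reached its array's 40th percentile on at least 3 of 6 arrays (13335 genes). The comparison of adult with E18 arrays used limma 3.58.1 under R 4.3.3 (lmFit, eBayes with intensity trend, Benjamini-Hochberg adjustment over all genes tested), and likewise over 28104 probe sets. The steps were tested on simulated data. Exact permutation of 3 against 3 arrays cannot give p below 0.10, so it was not used. The number of arrays limits the precision. The p-values set each difference against the spread between these samples, pooled over both groups and moderated across genes. Pooling takes that spread as equal in both groups, while the adult range was the wider for 78.9% of tested genes.

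The 9 genes, the marker and junction lists and the settings were chosen with earlier results of these data known. Named outside the 9 were list genes that passed, or the 2 with the lowest adjusted p where fewer than 2 did, the 3 closest profiles of each gene, and the markers Epcam, Cdh1, Pecam1, Cdh5 and Ptprc. Sftpc, Grhl2, Cldn1, Cldn8 and Cldn10, and the list members named as passing, were chosen after their values were seen. Replicate numbers are shared between groups, and the reported fit did not pair the arrays by them. Over all tested genes, deviations of same-numbered arrays from their group mean correlated at 0.036, -0.14 and -0.058. These values do not settle whether the arrays are paired, since the deviations of 3 arrays cancel out within each group.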

Additional observations from a re-analysis of the deposited data

How the results depend on the processing

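The 9 genes were refitted under 19 alternatives each (18 for Cldn6, which a floor at the 60th percentile removed). Of these 170 values 119 kept direction and side of the threshold, 27 kept the direction and lost the call, 12 gained a call and 12 changed sign. The count of all genes called, 798 in the reported fit, ranged from 66 to 2770 when 1 array was left out, and that of the 9 genes, 3 in the reported fit, from 0 to 8. E18 replicates 1 and 2, which correlated at 0.983, were also averaged, and the counts were then 63 and 0. With replicates 1 and 2 only they were 2996 and 7, where fewer samples were used. With the replicate block 492 genes and 2 of the 9, Cldn18 and Cldn5, were called. With arrays centred on the epithelial markers 188 genes and 0 of the 9 were called, 3.19% of the 188 lower, and with arrays centred on the endothelial markers 10415 and 1, 0.154% of the 10415 lower, against 76.4% lower in the reported fit. These scalings moved the median of all genes to 1.53 and 2.89, so their signs are relative to those markers. Under the epithelial one Cgn was at 0.83, Cldn3 at 0.48 and Cldn7 at 0.013. Under the endothelial one Cgn was at 2.20, Cldn3 at 1.85, Cldn7 at 1.38, Ocln at 0.84, Cldn4 at 0.60, Cldn5 at 0.49, Cldn6 at 0.39 and Cldn18 at 0.078. Cldn3 ranged from -2.59 to 0.040 when 1 array was left out. Quantile normalization and centring on the median each kept Cldn18 and Tjp1, with the median of all genes at -0.05 and -0.02. Cldn18 lost its call in 5 of 19 alternatives, Tjp1 in 10 of 19 and Cldn6 in 14 of 18, sign changes included. The cause of these changes was not tested beyond what the settings show.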

Other observations

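Further claudins resembled Cldn3, Cldn7 and Cgn in being far higher in adult replicate 3 than in the other adult arrays, and these are named after their values were seen. Cldn1, a sealing claudin of epithelia, stood at 5.83, 7.83 and 11.38 in adult replicates 1, 2 and 3, against 7.97, 7.83 and 8.10 in E18 replicates 1, 2 and 3 (log2 signal). Cldn10, a claudin that forms ion-selective pores, stood at 6.22, 6.17 and 10.98 in adult replicates 1, 2 and 3, against 8.99, 9.12 and 8.53 in E18 replicates 1, 2 and 3. Cldn8 stood at 5.65, 5.69 and 8.84 in adult replicates 1, 2 and 3, against 6.47, 5.41 and 4.77 in E18 replicates 1, 2 and 3. Of the 7 other claudins tested 6 were more than 1 log2 unit higher in adult replicate 3 than the mean of adult replicates 1 and 2, as were 24.7% of all tested genes and 6 of the 9 junction genes followed here. No test was made, since this compares 1 array with 2.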
